A study of Mus musculus with 27 samples.

Results

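The 10 genes described here encode myosin light chains (Myl1, Myl2, Myl3, Myl4, Myl7, Myl9 and Mylpf) and myosin light chain kinases (Mylk, Mylk3 and Mylk4). They were chosen by gene symbol from the 57683 features of the count table, of which 20031 are protein-coding genes, and all 10 were found. The strain throughout was C57BL/6J, inbred, with no transgene named in the labels, and polyadenylated RNA of 27 hearts was sequenced as single-end reads that do not keep the strand. The groups were 7 whole hearts of embryos at E13.5, and ventricular apexes of 6 unoperated mice aged 6 weeks, 6 unoperated mice aged 16 weeks, 4 mice aged 12 weeks after a sham operation and 4 mice aged 12 weeks after 4 weeks of pressure overload by TAC (transverse aortic constriction, a surgical narrowing of the aorta). The adults were labelled male except for 1 TAC heart, replicate F1, which was labelled female. The sex of the embryos was labelled unknown. The design allows embryonic hearts to be set against adult ones, the adult ages against each other and TAC against sham.

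Each myosin head carries an essential and a regulatory light chain on its lever arm. In the adult heart, atrial muscle is known for Myl4 (essential) and Myl7 (regulatory) and ventricular muscle for Myl3 (essential) and Myl2 (regulatory). Myl9 is a regulatory chain of smooth muscle and non-muscle myosin, and Myl1 and Mylpf are the essential and regulatory chains of fast skeletal muscle. Kinases add phosphate to the regulatory chain: Mylk is the calmodulin-dependent kinase of smooth muscle and other cells, Mylk3 is the cardiac kinase, and Mylk4 is a related kinase of striated muscle.

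Library totals were 7543375 to 12646039 counts at E13.5, 7958592 to 11561952 in sham and 10411417 to 11846819 in TAC hearts, but only 2092270 to 2682955 at 6 weeks and 2164604 to 2642307 at 16 weeks. The unoperated adult libraries also carry another base quality encoding in the labels, so encoding, depth and group cannot be told apart there. Y-linked counts went against the sex label in 8 libraries: 2 in each adult group, among them TAC replicate F1. Embryonic replicates 3 and 6 had 690 and 826 Y-linked counts, and the other embryos had 0 to 6. The part of sex in the embryonic differences was not tested. Levels are given as CPM, which are counts scaled to the library total times its TMM (trimmed mean of M values) factor. That factor was 1.365 to 1.467 at E13.5 and 0.792 to 0.9552 in adult libraries. Summed over 10 cardiomyocyte markers, the level was 22531 to 29861 CPM at E13.5 and 111282 to 179608 CPM over all adult libraries. All 10 of these markers had counts in every group. Summed erythroid markers were 12324 to 46066 CPM at E13.5 and 93.1 to 415 CPM in adults; their part in the differences below was not tested. The cardiomyocyte sum also depends on the genes listed. Myh6, which is on the list, was 6229.8 CPM at E13.5 and 52994 CPM in unoperated adults. Myh7, a heavy chain that is not on it, was 8504 against 2848 CPM. Fewer cardiomyocytes, less RNA per cardiomyocyte and the choice of listed genes cannot be told apart in such bulk samples.

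The 10 genes together took 0.938% ± 0.0894 (SD, n = 7) of all counts at E13.5 and between 1.44% (TAC) and 1.7% (16 weeks) as the mean of each adult group. Compared as CPM per kb of exonic bases that no other feature shares, the embryonic heart held 5 light chains well above the other genes. Myl7 led with 1616 CPM per kb, followed by Myl2 (1332), Myl9 (916), Myl3 (828) and Myl4 (564), and in this order the libraries of Myl7 and Myl2, of Myl9 and Myl3, and of Myl3 and Myl4 overlapped. The kinase Mylk3 came next at 43.2 CPM per kb, with no overlap. Below it stood Myl1 at 9.25, Mylpf at 5.84, Mylk at 4.41 and Mylk4 at 0.0538 CPM per kb, of which Myl1 and Mylk4 were apart from the gene above them.

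In adult apexes this order was led by the ventricular pair alone. Sham hearts held Myl2 at 5658 and Myl3 at 4373 CPM per kb without overlap, then Mylk3 at 225 and Mylk4 at 59.7, with Myl9 at 49.6 overlapping Mylk4. Mylk (9.48) and Myl1 (8.34) overlapped each other, and Myl4 (1.33), Mylpf (0.785) and Myl7 (0.412) were the lowest, each overlapping the next. In unoperated adults Myl3 stood above Myl2, at 5222 against 4897 CPM per kb at 6 weeks and 5572 against 5391 at 16 weeks, but their libraries overlapped. The atrial Myl4 and Myl7 were thus the 5th and 1st of the 10 genes at E13.5 and the 8th and 10th in sham hearts.

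**Figure D1:**
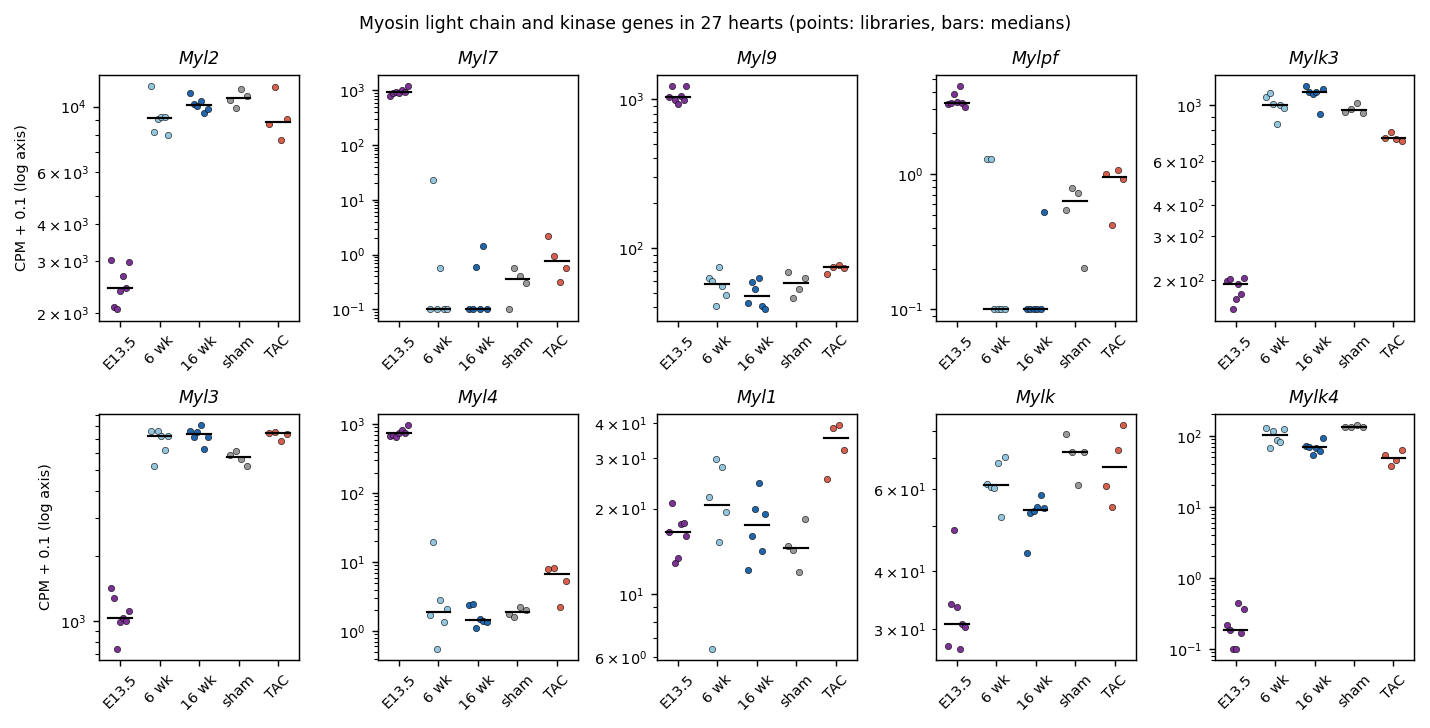
CPM plus 0.1 of the 10 genes on log axes, 1 panel a gene with its own range; points are libraries in the 5 groups and bars are medians. Myl4, Myl7 and Myl9 were higher in all 7 embryonic hearts than in any adult, Mylk4 was lower in all 7, and 1 heart at 6 weeks stands above its group in Myl4 (19.8 CPM) and Myl7 (23.4 CPM).

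The first comparison asked how the genes differed between whole E13.5 hearts and unoperated adult apexes. Myl4, Myl7, Myl9 and Mylpf were higher in the embryo, Myl2, Myl3, Mylk, Mylk3 and Mylk4 were lower, and Myl1 did not pass (edgeR quasi-likelihood test, Benjamini-Hochberg adjusted p under 0.05). These 9 of 10 calls stand against a background of 83.8% of 12766 features called in this comparison, 44.1% higher and 39.7% lower. Embryonic samples were whole hearts with their atria and adult samples were apexes, so the chamber sampled, the age and the depth cannot be told apart.

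Of the ventricular chains, Myl2 ran from 2058 CPM through a median of 2433 to 3030.3 CPM at E13.5. It ran from 8005 through 9140.4 to 11773 CPM at 6 weeks and from 9512 through 10120.3 to 11127 CPM at 16 weeks. No embryonic heart reached an adult one, and the fitted difference was 3.85-fold lower at E13.5 (log2 -1.95 ± 0.08 SE, edgeR adjusted p = 1.76e-19). Myl3, its essential partner, ran from 743 through 1032 to 1427 CPM at E13.5, from 5211 through 7162 to 7611 CPM at 6 weeks and from 6266 through 7316 to 8086 CPM at 16 weeks. It was 6.51-fold lower in the embryo, again without overlap (log2 -2.70 ± 0.11 SE, edgeR adjusted p = 5.8e-18).

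Of the atrial chains, Myl7 ran from 797 through 939 to 1216 CPM at E13.5. At 6 weeks it was at 0 in 4 of 6 hearts, at 0.461 CPM in 1 and at 23.4 CPM in replicate 2, and at 16 weeks it was at 0 in 4 of 6 hearts with a highest value of 1.32 CPM. Every embryonic heart was above every adult one (log2 9.65 ± 0.48 SE, edgeR adjusted p = 2.54e-12), and without 6-week replicate 2 the log2 difference was 12.32. Myl4 ran from 665 through 751 to 977 CPM at E13.5, from 0.457 through 1.81 to 19.8 CPM at 6 weeks and from 0.994 through 1.37 to 2.41 CPM at 16 weeks. It too did not overlap (log2 8.08 ± 0.30 SE, edgeR adjusted p = 3.22e-14), with 8.89 when 6-week replicate 2 was left out. Only 29.3% of the exonic bases of Myl4 are free of other features, so its counts may come from part of the gene, and its level per kb rests on 1360 bases.

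Within a library, the share of the atrial isoform needs no scaling between libraries. Myl7 made up 54.9% ± 4.37 (SD, n = 7) of Myl7 and Myl2 counts per kb at E13.5, with a range of 45.7% to 59.4%. In unoperated adults the mean share was 0.0817% (n = 12; exact two-sided permutation test, p = 1.98e-05), with 8 of 12 hearts at 0 and a mean of 0.00695% without 6-week replicate 2. Myl4 made up 40.9% ± 5.56 (SD, n = 7) of Myl4 and Myl3 counts per kb at E13.5, from 31.5% to 46.2%, against 0.0502% in unoperated adults (n = 12; exact two-sided permutation test, p = 1.98e-05, the smallest this design allows), or 0.0217% without that heart. Both atrial shares were thus at least 31.5% in whole embryonic hearts and under 1% in every adult apex, and how much of the embryonic share came from atrial tissue was not tested. Of the 14 atrial markers, 13 had counts at E13.5, summing to between 2253 and 3041 CPM, against 1291 to 2784 CPM in the unoperated adults. Of the 12 tested, 6 were higher at E13.5 (among them Bmp10, at 0 in the unoperated adults) and 3 were lower (Kcna5, Kcnj3 and Kcnj5). Sln, another atrial marker, has no exonic base of its own in this annotation and was at 0 in every library.

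**Figure D2:**
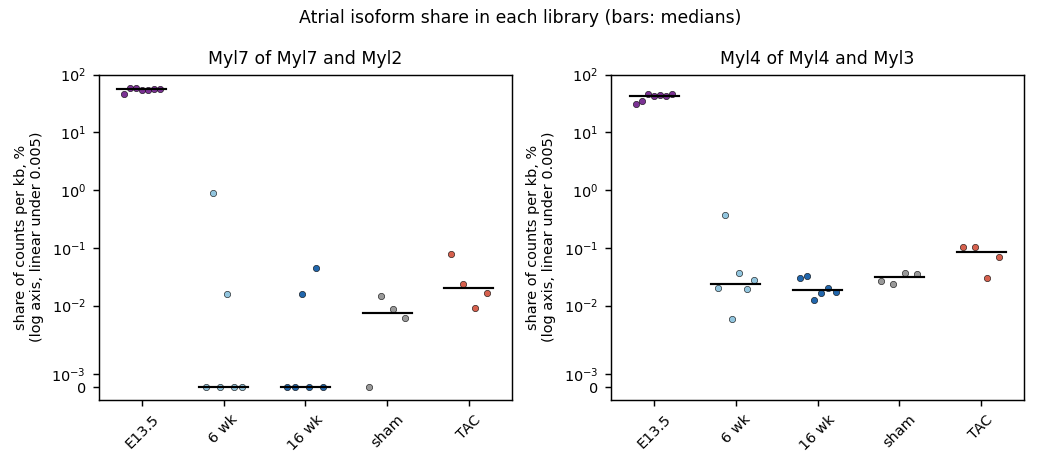
Share of Myl7 in Myl7 plus Myl2 (left) and of Myl4 in Myl4 plus Myl3 (right), in percent of counts per kb, on an axis that is logarithmic above 0.005% and linear below; points are libraries and bars are medians. The embryonic hearts lie between 31.5% and 59.4%, and all adult hearts lie under 1%, the highest being 6-week replicate 2 at 0.904% for Myl7 and 0.364% for Myl4.

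Myl9, the smooth muscle and non-muscle regulatory chain, ran from 933 through 1033 to 1235 CPM at E13.5. It ran from 40.7 through 57.5 to 74.3 CPM at 6 weeks and from 38.5 through 47.7 to 62.3 CPM at 16 weeks. The embryonic level was 20.1-fold higher without overlap (log2 4.33 ± 0.10 SE, edgeR adjusted p = 6.17e-24). The summed level of 10 smooth muscle markers overlapped between the groups, at 1657 to 2019.8 CPM at E13.5 and 1522 to 2481 CPM in the unoperated adults. Among those markers 5 rose and 5 fell at E13.5: Cnn1, an actin-binding protein of smooth muscle, was 212 CPM at E13.5 and 3.4 CPM in unoperated adults, while Myh11, the smooth muscle myosin heavy chain, was 26.5 against 132 CPM. Their part in the Myl9 difference was not tested.

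The fast skeletal chains were low throughout. Mylpf lay between 2.99 and 4.37 CPM in the embryonic hearts (median 3.25 CPM). It was at 0 in 4 of 6 hearts at 6 weeks and 5 of 6 at 16 weeks, with a highest adult value of 1.19 CPM from 3 counts (log2 4.05 ± 0.42 SE, edgeR adjusted p = 4.46e-10). Without 16-week replicate 6, the single heart of that age with a Mylpf count, the log2 difference was 5.23. Myl1 ran from 12.8 through 16.4 to 20.9 CPM at E13.5, from 6.34 through 20.5 to 29.7 CPM at 6 weeks and from 12.1 through 17.5 to 24.5 CPM at 16 weeks. These ranges overlapped widely and no difference passed (log2 -0.19 ± 0.18 SE, edgeR adjusted p = 0.318). Its sign turned when libraries were scaled by size alone (0.45, edgeR adjusted p = 0.0167), and without 6-week replicate 2 the value was -0.29 (edgeR adjusted p = 0.0397). The summed skeletal muscle markers were 211 to 284 CPM at E13.5 and 99.4 to 229 CPM in the unoperated adults. Of 9 tested, 5 were higher at E13.5, among them Tnni2 (29 against 1.18 CPM), and 4 were lower, among them Myh2 (0.151 against 62.5 CPM).

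Among the kinases, Mylk3 ran from 153 through 194 to 204 CPM at E13.5. Its range was 844 through 1007 to 1119 CPM at 6 weeks and 923 through 1131 to 1198 CPM at 16 weeks, 5.7-fold above the embryonic level with no overlap (log2 -2.51 ± 0.07 SE, edgeR adjusted p = 1.26e-23). Mylk4 held 12 counts over all 7 embryonic hearts, with a highest value of 0.336 CPM and 0 in 2 hearts. In the unoperated adults it ran from 67.7 through 102 to 131 CPM at 6 weeks and from 54.2 through 68.7 to 92.6 CPM at 16 weeks. The difference was the widest downward one among the 10 genes (log2 -9.18 ± 0.26 SE, edgeR adjusted p = 1.74e-19).

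The kinase of smooth muscle, Mylk, ran from 27.1 through 30.6 to 48.9 CPM at E13.5. It ran from 52.3 through 61 to 70.4 CPM at 6 weeks and from 43.7 through 54.1 to 58.3 CPM at 16 weeks, so that embryonic replicate 3 (48.9 CPM) overlapped the lowest 16-week heart. Mylk was 1.73-fold lower at E13.5 (log2 -0.79 ± 0.10 SE, edgeR adjusted p = 2e-08), whereas Myl9, a substrate of this kinase, was higher. With library size alone the Mylk difference was -0.16 and did not pass (edgeR adjusted p = 0.137). That scaling moved the median log2 difference of all features from 0.07 to 0.71 and turned 5630 higher and 5065 lower calls into 8282 and 2975, so directions here are relative to the TMM (trimmed mean of M values) scaling.

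Of the 10 genes, 4 were higher and 4 lower in every embryonic heart than in every unoperated adult, against 28.1% and 26.4% of the features tested. The comparison with sham hearts, which match the embryonic libraries in depth and encoding but are also apexes, shares the embryonic libraries with the first. It called 4 higher and 5 lower against a background of 76.3% of 18677 features (40.7% higher and 35.6% lower), and in it the 4 and the 5 genes were apart in every heart (35.7% and 28.1% of features). Mylk4 was at 132 to 142 CPM in sham hearts (log2 -10.06 ± 0.17 SE, edgeR adjusted p = 1.24e-20). Myl7 held 8 counts over the 4 sham hearts (log2 11.83 ± 0.23 SE, edgeR adjusted p = 7.71e-18). The other differences were 8.64 for Myl4, 4.11 for Myl9, 2.83 for Mylpf, -1.20 for Mylk, -2.18 for Myl2, -2.47 for Mylk3 and -2.49 for Myl3 on the log2 scale. Myl1 did not pass (log2 0.05 ± 0.13 SE, edgeR adjusted p = 0.758). The Myl7 share differed by 54.8 percentage points and the Myl4 share by 40.9 (7 against 4 hearts, exact two-sided permutation test, p = 0.00303 for each, the smallest this design allows). Scaled by library size alone, the split of all calls went from 7597 higher and 6657 lower to 12690 and 3270, and the median of all features from 0.12 to 0.95.

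**Figure D3:**
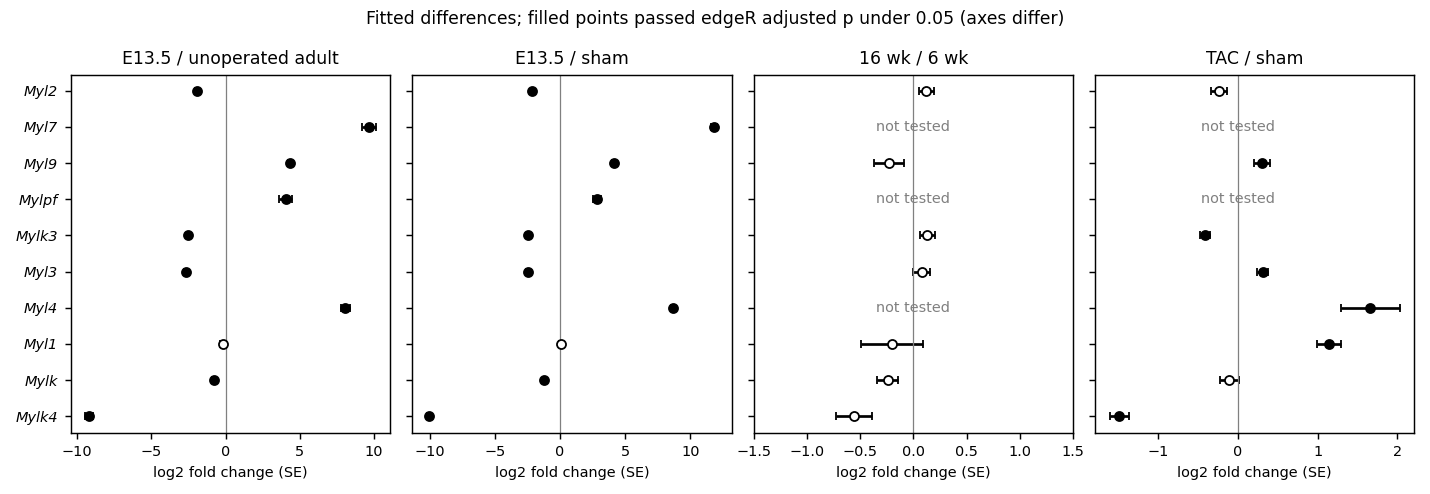
Fitted log2 fold changes with standard errors of the 10 genes in the 4 comparisons; filled points passed the edgeR test at an adjusted p under 0.05, and the axes differ between panels. The embryonic panels span from -10.06 (Mylk4) to 11.83 (Myl7), while TAC against sham spans from -1.49 (Mylk4) to 1.66 (Myl4).

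Sequences just before the start of 3 of these genes are shown because they hold the same kind of site, a CArG box (CC and GG around a run of A and T, bound by serum response factor). The RefSeq table for build GRCm38.p6, another build than the mm9 of the counts, gives for each gene a window of 250 bases before to 50 bases after its start, and all 10 genes have one. The stretches below run 5′ to 3′ from 250 to 51 bases before the start, on the plus strand at chr2:156775214-156775413 for Myl9, on the plus strand at chr9:110763428-110763627 for Myl3 and on the minus strand at chr11:5898833-5899032 for Myl7. Capitals mark the CArG box, which lies 161 to 152, 85 to 76 and 61 to 52 bases before the start.
Myl9: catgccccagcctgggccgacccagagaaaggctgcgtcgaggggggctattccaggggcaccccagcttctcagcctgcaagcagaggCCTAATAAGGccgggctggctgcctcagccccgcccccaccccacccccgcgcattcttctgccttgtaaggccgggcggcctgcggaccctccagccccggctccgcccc
Myl3: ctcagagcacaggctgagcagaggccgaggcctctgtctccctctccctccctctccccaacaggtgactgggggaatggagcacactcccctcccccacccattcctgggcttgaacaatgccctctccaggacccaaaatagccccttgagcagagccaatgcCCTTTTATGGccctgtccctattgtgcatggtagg
Myl7: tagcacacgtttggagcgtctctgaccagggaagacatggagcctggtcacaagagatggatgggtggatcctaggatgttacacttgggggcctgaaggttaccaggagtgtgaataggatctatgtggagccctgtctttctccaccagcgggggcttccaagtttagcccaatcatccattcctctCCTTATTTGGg
A CArG box was found on either strand within the 250 bases before the start in 482 of 32851 windows (1.47%). Its 3 holders did not move together: Myl7 and Myl9 were higher and Myl3 was lower at E13.5. Both windows of Myl2 lie far from the start of the gene in another annotation and were left out, which leaves 10 windows of 9 genes. The same bases of these 10 windows held CATTCC in 5 (12.6% of all windows), GATAA in 3 (22.6%), AAGTG in 3 (40.7%), CANNTG in 6 (66.2%), TATAAA in 1 (12.4%) and the MEF2 site in 0 (0.508%), on either strand. AAGTG and CANNTG matches can share bases, as they do before Myl7. A match describes the letters of the window only.

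Between 16 and 6 weeks, no light chain or kinase passed the edgeR test. Of the 10 genes 7 could be tested, 0 were called against a background of 2.51% of 10394 features, and Mylk4 and Mylk had an unadjusted p under 0.05, which makes 2. DESeq2 called 1, Mylk4, and limma-voom called 0. Mylk4 was 101 CPM ± 25.9 (SD, n = 6) at 6 weeks and 69.2 CPM ± 13.1 (SD, n = 6) at 16 weeks. The ranges overlapped, and the log2 difference was -0.56 ± 0.17 SE (edgeR adjusted p = 0.0885; DESeq2 -0.57, adjusted p = 0.0263; range of edgeR values without 1 heart, -0.67 to -0.47). Mylk was 62.2 CPM ± 6.47 (SD, n = 6) at 6 weeks and 53 CPM ± 4.89 (SD, n = 6) at 16 weeks (log2 -0.24, edgeR adjusted p = 0.205). Myl2 (0.12), Myl3 (0.08), Mylk3 (0.13), Myl1 (-0.20) and Myl9 (-0.23) differed less on the log2 scale, and all 10 genes overlapped between the ages, where 1.35% and 0.702% of features did not overlap, higher and lower.

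Myl4, Myl7 and Mylpf had too few counts to be tested between the ages. In 6-week replicate 2 the atrial chains stood apart: Myl7 was 23.4 CPM from 59 counts, with the other 5 hearts at 0 to 0.461 CPM, and Myl4 was 19.8 CPM from 50 counts, with the others at 0.457 to 2.77 CPM. That heart was the lowest of its group in Myl1 (6.34 CPM). Its atrial markers did not all move the same way. Dkk3 was 27.7 CPM there and 3.66 to 8.61 CPM in the others, but Nppa was 78.8 CPM and 244 to 1064 CPM in the others, Bmp10 was at 0 in all 6, and the summed atrial markers, 1291 CPM, were the lowest of the group (highest 2375 CPM). Their part in the Myl7 and Myl4 levels was not tested. The mean Myl7 share was 0.153% at 6 weeks and 0.0101% at 16 weeks (6 against 6 hearts, exact two-sided permutation test, p = 0.727), and without this heart the difference turned from -0.143 to 0.00686 percentage points. The Myl4 share was 0.0789% against 0.0215% (6 against 6 hearts, exact two-sided permutation test, p = 0.476), and without the same heart the difference went from -0.0574 to -0.000402 points.

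The last comparison set TAC against sham hearts of the same age and like depth. Myl1, Myl3, Myl4 and Myl9 were higher and Mylk3 and Mylk4 lower under TAC, and Myl2 and Mylk did not pass. That is 6 of 8 genes tested, against a background of 38.0% of 14555 features called, 19.6% higher and 18.4% lower. Groups were apart in every heart for Myl1 and Myl3 (higher) and for Mylk3 and Mylk4 (lower), as for 21.4% and 14.3% of features. Separate hearts make up the groups, but in 2 of the 4 hearts of each group the Y-linked counts did not match the sex label. Values without those hearts are given where they end or make a call, and such fits rest on fewer hearts. Summed fibroblast markers were 1211 to 1362 CPM in sham and 2454 to 4834 CPM in TAC hearts. Most of the TAC sum came from the collagen genes Col1a1 (918 CPM in TAC, 239 in sham), Col1a2 (655 and 229.5) and Col3a1 (1253 and 336). Dcn (306 and 301 CPM) and Dpt (107 and 96.2 CPM) did not pass. Of the 8 markers 5 were higher, 0 lower and 3 not called, and their part in the results was not tested. Mitochondrially encoded features took 1.77% to 6.44% of counts in sham and 1.35% to 1.95% in TAC hearts; leaving them out of the library sizes changed no call on the 10 genes.

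Mylk4 had the largest downward difference of the 8 genes tested. The 4 sham hearts had 134, 132, 142 and 135 CPM. The 4 TAC hearts (replicates 1, 2, 3 and F1) had 53.4, 37.7, 44.9 and 63.2 CPM. Every TAC heart was far below every sham heart, a 2.81-fold difference (log2 -1.49 ± 0.12 SE, edgeR adjusted p = 5.35e-06). The unoperated adults, at 54.2 to 131 CPM, lay below the sham hearts and overlapped TAC; they were not tested against either.

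Mylk3, the cardiac kinase, had 945, 964, 1021 and 928 CPM in sham hearts and 739.8, 784, 737 and 722 CPM in TAC hearts. No TAC heart reached a sham heart, and the level was 1.33-fold lower (log2 -0.41 ± 0.06 SE, edgeR adjusted p = 1.23e-04). Mylk had 78.7, 71.9, 61.3 and 72.1 CPM in sham hearts and 60.9, 54.7, 72.8 and 82.4 CPM in TAC hearts. The groups overlapped and the difference did not pass (log2 -0.11 ± 0.12 SE, edgeR adjusted p = 0.478). Without the 2 of 4 hearts in each group whose sex label did not match, the Mylk difference was -0.43 (edgeR adjusted p = 0.00315). Those left out include TAC replicates 3 and F1, the 2 highest.

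Of the ventricular light chains, Myl3 was higher under TAC and Myl2 did not pass. Myl3 had 5868, 6124, 5609 and 5243 CPM in sham hearts and 7464, 7529, 6801 and 7336 CPM in TAC hearts. Every TAC heart was higher, by 1.24-fold (log2 0.31 ± 0.07 SE, edgeR adjusted p = 0.00251). Myl2 had 10518, 9931, 11492 and 10831 CPM in sham hearts and 8718, 11668, 7716 and 9075 CPM in TAC hearts. TAC replicate 2 was above all sham hearts and the other 3 were below them; the log2 difference was -0.24 ± 0.10 SE (edgeR adjusted p = 0.0792), and without TAC replicate 2 it was -0.36 (edgeR adjusted p = 0.002). Described with no test, the ratio of Myl3 to Myl2 in counts per kb was 0.777 ± 0.0915 (SD, n = 4; 0.7 to 0.892) in sham hearts and 1.15 ± 0.154 (SD, n = 4; 0.934 to 1.28) in TAC hearts. Unoperated adults had mean ratios of 1.08 (6 weeks) and 1.03 (16 weeks), and Myl3 in both sham and TAC hearts lay within the 5211 to 8086 CPM of the unoperated adults. The ratio was chosen after these values had been seen.

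The atrial essential chain Myl4 had 1.66, 1.49, 2.16 and 1.94 CPM in sham hearts and 7.91, 8.1, 2.14 and 5.33 CPM in TAC hearts. TAC replicates 1, 2 and F1 were above all sham hearts and replicate 3 lay among them, with a fitted 3.15-fold difference (log2 1.66 ± 0.37 SE, edgeR adjusted p = 0.00443). Even so, the highest TAC value was far below the lowest embryonic one, 665 CPM. Among the unoperated adults, 6-week replicate 2 had 19.8 CPM, above every TAC heart, and the others had 0.457 to 2.77 CPM. These adults were not tested against sham or TAC. Summed atrial markers were 1209.8 to 1324 CPM in sham and 3948 to 5330.1 CPM in TAC hearts. In TAC hearts most of that sum was Nppa, a natriuretic peptide gene, and the sum was highest in TAC replicate 3, whose Myl4 was the lowest of TAC. Bmp10 had at most 2 counts in any heart of either group. Of the 11 atrial markers tested, 3 were higher and 3 lower, and their part in the Myl4 difference was not tested.

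Myl7 had 0, 4, 2 and 2 counts in the sham hearts and 19, 8, 2 and 4 in the TAC hearts, too few for the expression filter. With no filter its log2 difference was 1.90 (edgeR adjusted p = 0.00685), but with all 27 libraries in 1 fit it was 1.87 and did not pass (edgeR adjusted p = 0.396). The Myl7 share was 0.00736% ± 0.00614 (SD, n = 4) in sham and 0.0316% ± 0.0313 (SD, n = 4) in TAC hearts (exact two-sided permutation test, p = 0.0571). The Myl4 share was 0.0307% ± 0.00653 (SD, n = 4) in sham and 0.0762% ± 0.0343 (SD, n = 4) in TAC hearts (exact two-sided permutation test, p = 0.0857). The smallest p this design allows is 0.0286. TAC replicate 3 was the only TAC heart within the sham range in both shares. Without it the differences were 0.0318 points for Myl7 and 0.0608 for Myl4 (3 against 4 hearts). The exact permutation p of 0.0286 for each then follows from leaving out the overlapping heart and carries no support. For Myl4, p was 0.0857 without TAC replicate 1 and without TAC replicate 2 (exact permutation test). Without TAC replicate 1, which held 19 of the 33 Myl7 counts of TAC, the Myl7 difference was 0.00886 points (exact permutation test, p = 0.143).

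Myl1, the fast skeletal essential chain, had 14.7, 14.2, 11.9 and 18.3 CPM in sham hearts and 25.3, 38.4, 39.2 and 32 CPM in TAC hearts. Every TAC heart was higher, by 2.2-fold (log2 1.14 ± 0.15 SE, edgeR adjusted p = 8.79e-05). Its regulatory partner in fast muscle, Mylpf, had 0.102 to 0.689 CPM in sham and 0.32 to 0.965 CPM in TAC hearts and was not tested. Summed over 15 skeletal muscle markers, the level was 118 to 129 CPM in sham and 209 to 371 CPM in TAC hearts, with Tnnc2 and Myog at 0 in both groups. Most of that difference was Mybpc2, a myosin-binding protein of fast muscle, at 198 CPM in TAC and 64.7 CPM in sham hearts: the other 14 summed to 52.2 to 86.4 CPM in TAC and 54.3 to 63 CPM in sham hearts. Of the 7 tested, 3 were higher (Mybpc2, Tnnt3 and Casq1), 1 was lower (Cacna1s, a calcium channel subunit, log2 -0.69), and the median was -0.15. Their part in the Myl1 difference was not tested.

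Myl9 had 68.3, 46.3, 53.2 and 62.6 CPM in sham hearts and 66.7, 74.8, 77.1 and 73.3 CPM in TAC hearts. Sham replicate 1 lay above the lowest TAC heart, and the difference was 1.23-fold (log2 0.30 ± 0.10 SE, edgeR adjusted p = 0.0338). This call was the least stable of the 6. It held in only 3 of 8 fits that left out 1 heart, being lost without sham replicate 2 (0.20) or 3 (0.27) and without TAC replicate 2 (0.29), 3 (0.27) or F1 (0.31). Without the 2 of 4 hearts in each group whose sex label did not match, the value was 0.07 (edgeR adjusted p = 0.598). Smooth muscle markers summed to 1914 to 2096 CPM in sham and 1758 to 2105 CPM in TAC hearts.

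**Figure D4:**
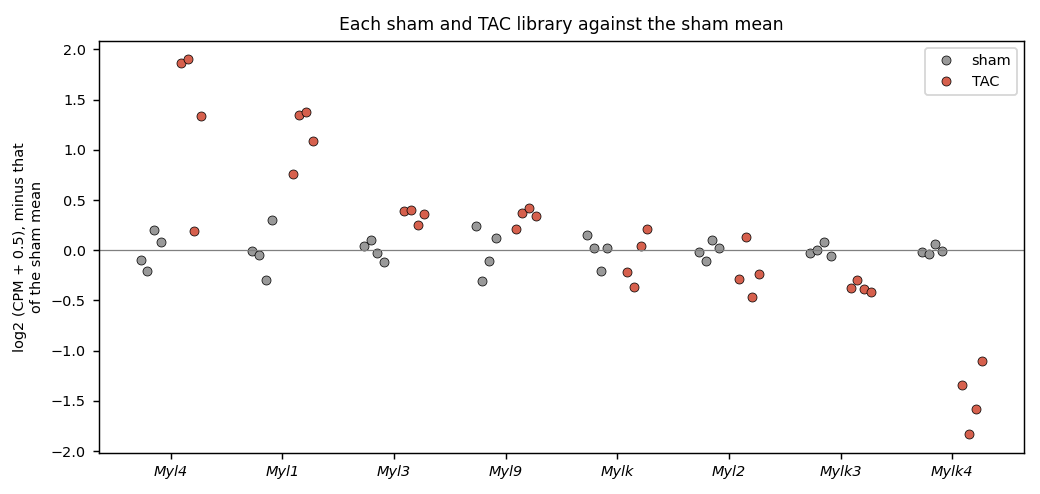
Each sham and TAC heart as log2(CPM + 0.5) minus the log2 of the sham mean CPM plus 0.5, for the 8 genes that were tested. All TAC points of Myl1 and Myl3 lie above the sham points and all of Mylk3 and Mylk4 below them, while 1 TAC heart, replicate 3, lies among the sham hearts for Myl4.

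Genes of the same pathway were taken from lists chosen with earlier results of these data known, and their counts are to be read against the 83.8% (E13.5 against unoperated adults), 76.3% (E13.5 against sham), 2.51% (16 against 6 weeks) and 38.0% (TAC against sham) of all features called. Of 11 relatives of the light chains and kinases in the count table, 9 entered the test, but 8 between the ages. At E13.5, 3 passed upward and 3 downward against unoperated adults (median log2 0.00, all features 0.07), and 1 and 4 against sham. Between the ages 0 passed, and 4 were higher and 0 lower under TAC (median 0.35, all features 0.00). Dapk3, a kinase that also acts on the regulatory chain, was 47.6 CPM in TAC and 33.5 CPM in sham hearts (log2 0.46 ± 0.08 SE, edgeR adjusted p = 2.48e-04). Myl6, the essential partner of Myl9, was 17.7 CPM at E13.5, 1.24 CPM in unoperated adults and 9.22 CPM in sham hearts, but it has near-identical copies in the genome among which its reads could be split, so its level is uncertain.

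For the light chain phosphatase and its regulators, which take the phosphate off again, 5 of 12 passed upward and 6 downward at E13.5 against unoperated adults, and 4 of 13 upward and 1 downward under TAC, near the 38.0% of all features. Ppp1r12b, the striated muscle targeting subunit, was 103 CPM at E13.5 and 377 CPM in unoperated adults (log2 -1.86 ± 0.05 SE, edgeR adjusted p = 6.08e-24). Ppp1cc, a catalytic subunit of protein phosphatase 1, was 16.6 CPM in TAC and 6.88 CPM in sham hearts (log2 1.23 ± 0.16 SE, edgeR adjusted p = 2.91e-05). The other catalytic subunits listed, Ppp1cb (96.2 against 83.6 CPM) and Ppp1ca (247 against 250.3 CPM), were higher in level and did not pass (edgeR adjusted p = 0.114 and 0.446). Of the 7 calmodulin genes and calmodulin kinases, 2 were higher and 3 lower at E13.5 than in unoperated adults, where 83.8% of all features were called, and 3 were higher and 1 lower under TAC, where 38.0% were. Camk2a, a calmodulin kinase, was 86.7 CPM in TAC and 115 CPM in sham hearts (log2 -0.46 ± 0.07 SE, edgeR adjusted p = 2.38e-04). Neither group had a member called between the ages.

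Myosin heavy chains are the partners of the light chains. At E13.5 against unoperated adults, 4 of 9 passed upward and 5 downward (83.8% of all features called), 1 of 8 rose with age (2.51%), and 4 of 7 rose and 0 fell under TAC (38.0%). Myh10, a non-muscle chain that pairs with Myl9, was 1187 CPM at E13.5 and 109 CPM in unoperated adults, and Myh6, the adult cardiac chain, was 6229.8 against 52994 CPM. Myh7, the chain of the fetal ventricle, was 2581 CPM in TAC and 461 CPM in sham hearts (log2 2.44 ± 0.29 SE, edgeR adjusted p = 9.03e-04), while unoperated adults held 2644 CPM (6 weeks) and 3053 CPM (16 weeks). Among 15 factors known to act on light chain genes, 7 were higher and 4 lower at E13.5 than in unoperated adults (83.8% of all features called), and of 14 tested 6 were higher and 4 lower under TAC (38.0%). Tbx5, a T-box factor of the heart, was 42.7 CPM in TAC and 78.9 CPM in sham hearts (log2 -0.93 ± 0.08 SE, edgeR adjusted p = 3.44e-07), and Nkx2-5, a homeobox factor, was 110.1 against 74 CPM.

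Likeness of pattern was measured as the root mean square difference between the log2(CPM + 0.5) means of the 5 groups, each gene centred on its own mean, among protein-coding genes with a group mean of at least 5 CPM. Closest to Mylk4 was Ces3, a carboxylesterase, at 0.0907, with mean levels of 0.0881, 83.5, 68.3, 132 and 46.1 CPM from E13.5 through 6 weeks, 16 weeks and sham to TAC; the next, Ucp3, was at 0.325. Closest to Myl3 was Ndufa8 (0.0442), a subunit of respiratory complex I, closest to Myl2 Idh3g (0.0587), a subunit of isocitrate dehydrogenase, and closest to Mylk3 Mfap3l (0.0459). Mylk had the closest match of all, Dgcr6 (0.0259). Myl9 was nearest to Tacc3 (0.0624), a spindle protein, Myl1 to Nacad (0.0811) and Mylpf to Tipin (0.0818). Matches were far looser for the atrial chains, with Fras1 at 0.55 for Myl4 and Hsd3b6 at 0.881 for Myl7, followed by Tnni1, the slow skeletal troponin I that the fetal heart uses, at 0.886. Myl4 and Myl7 stood 0.928 from each other. Their 6-week means rest mostly on replicate 2, which held 59 of 60 Myl7 counts and 50 of 68 Myl4 counts of that group. How far this heart and levels near 0 loosened the matches was not tested. These distances describe 5 group means in the same libraries and carry no test.

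Features that adjoin the genes were read beside them, since the libraries do not keep the strand. In mm9, Mylk4 (ENSMUSG00000044951) spans chr13:32796549-32875823 on the minus strand. The NONCODE transcript n295438 lies inside its span with 0 exonic bases shared, and n287430 lies 2045 bases away. They differed in the same directions as Mylk4, by -8.37 and -8.85 (E13.5 against unoperated adults) and by -1.31 and -0.96 (TAC against sham) on the log2 scale, and reads of n295438 and of unspliced Mylk4 RNA cannot be told apart. Myl7 (ENSMUSG00000020469) lies at chr11:5796640-5798785 on the minus strand and shares no exonic base with another feature. Mylk (ENSMUSG00000022836, chr16:34745296-35002520, plus strand) shares 505 exonic bases with n268027 and 974 with n275627, and 72.4% of its exonic bases are its own. The remaining genes, as annotated in mm9, are Myl2 at chr5:122550960-122563481, Myl3 at chr9:110666150-110672308, Myl4 at chr11:104411977-104457067, Myl9 at chr2:156601156-156607394 and Mylpf at chr7:134355122-134357812 on the plus strand, and Myl1 at chr1:66970869-66991978 and Mylk3 at chr8:87848202-87910244 on the minus strand. Of these, Myl1, Myl3, Myl9 and Mylk3 share no exonic base with another feature, Myl2 keeps 96.9% and Mylpf 66.6% of its exonic bases to itself.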

How the data were processed

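Raw counts for every feature were deposited by the authors; Bowtie, TopHat 1.3.0, HTSeq and build mm9 (NCBIM37), with DESeq and edgeR in no stated role, come from the submitters' processing notes. The counting mode is not given in the sources used here. The embryos' age field steps up from E13.5 while the titles give E13.5, which was used. Totals ranged from 2092270 to 12646039 counts a library. No pair of libraries within a group was a duplicate, and pairs across groups were not compared.

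Statistics used R 4.3.3, edgeR 4.0.16 (quasi-likelihood test, robust, filterByExpr with a minimum count of 10 and total of 15, TMM, Benjamini-Hochberg over all features tested, 0.05), limma 3.58.1 and DESeq2 1.42.0; tables and figures used Python 3.11.15. Only the groups compared entered a fit, and the adult reference of E13.5 was the average of both unoperated ages. SE is the size of the log2 difference divided by the root of the F statistic. CPM use TMM factors over 27 libraries, and shares use counts per kb of exonic bases free of other features. The scripts were tested on simulated data. All 10 members are named. Of each list, up to 4 called genes with the largest change and a mean of at least 1 CPM could be named. Ppp1cb and Ppp1ca, which were not called under TAC, were added beside Ppp1cc. The members and lists were chosen with earlier results of these data known. Alternatives were other scalings, filters, tools, a log2 threshold of 0.5, a replicate block, other references, thinned embryonic counts and libraries left out.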

Additional observations from a re-analysis of the deposited data

Results flagged for a closer look

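Of 60 groups of values tested for a single distant library (the CPM of the 10 genes and the 2 isoform shares in 5 groups), 11 held one. The rule flags about 1 in 20 among independent, normally spread values. Some sets here hold counts near 0 and the shares reuse counts of the genes, so the 11 cannot be measured against that rate. In 6-week replicate 2, Myl7 was 23.4 CPM (others 0 to 0.461), Myl4 was 19.8 CPM (others 0.457 to 2.77), the Myl7 share was 0.904% (others 0 to 0.016%) and the Myl4 share was 0.364% (others 0.00577% to 0.0371%), 4 values that share the same counts. Myl2 was 11773 CPM in 6-week replicate 1 (others 8005 to 9259). At E13.5, Mylk was 48.9 CPM in replicate 3 (others 27.1 to 33.8), and the Myl7 share was 45.7% in replicate 1 (others 54.6% to 59.4%). At 16 weeks, Mylk was 43.7 CPM in replicate 1 (others 53.1 to 58.3) and Mylk3 was 923 CPM in replicate 5 (others 1112 to 1198). The Myl7 share of 0.0446% in 16-week replicate 5 (others 0 to 0.0159%) rests on 3 counts, and the Mylpf level of 0.423 CPM in 16-week replicate 6 (others 0) on 1 count.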

How the results depend on the processing

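Over the other settings tried, 867 of 897 values kept their direction and side of the threshold, 12 gained a call, 14 lost one and 4 turned. The 4 that turned were all Myl1 at E13.5: 0.45 against unoperated adults with library size alone, and against sham -0.13 without the libraries against their sex label, -0.04 without E13.5 replicate 2 and -0.05 without sham replicate 3 (range without 1 heart -0.05 to 0.16). Among the isoform shares, the Myl7 share between the ages turned to 0.00686 points without 6-week replicate 2 (range without 1 heart -0.174 to 0.00686). Between the ages 1 gene, Mylk4, was called by DESeq2, with no filter and with the replicate block (range without 1 heart 0 to 1). Under TAC, 3 genes passed a log2 threshold of 0.5, and without 1 heart 5 to 6 were called. Without 1 heart the TAC shares differed by 0.00886 to 0.0318 points (Myl7) and 0.0365 to 0.0608 points (Myl4). Myl9 under TAC lost its call with upper-quartile scaling (0.26, adjusted p = 0.0509) and with all 27 libraries in 1 fit (0.34, adjusted p = 0.0612). Myl2 under TAC gained one with upper-quartile scaling (-0.28), library size alone (-0.25) and no filter (-0.19). Replicate numbers are shared between groups. The deviations of same-numbered hearts correlated weakly, from -0.063 to 0.152, which does not settle whether they share more than a number. With the replicate block the TAC calls of Myl3 (0.26, edgeR adjusted p = 0.079) and Myl9 (0.35, edgeR adjusted p = 0.0944) were lost, leaving 4 genes. Best own matches were 1 of 4 numbers for E13.5 and sham, 3 of 6 between the ages and 0 of 3 for TAC and sham. Of all features, no filter called 18408 against 10695 at E13.5; between the ages, 261 became 508 with no filter, 420 with all libraries, 3 with the threshold, 138 without the libraries against their sex label, 107 to 364 without 1 heart, and library size alone split the calls into 100 higher and 139 lower (137 and 124); under TAC, 5528 became 961 with the threshold and 3675 with the block. At the depth of the unoperated adults, Myl7 and Mylpf rest on 0 to 3 counts in most hearts, so their folds are imprecise.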
